A study of Mus musculus with 12 samples.

Results

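The miR-148 and miR-152 family of the mouse comprises the mature microRNAs (miRNAs) mmu-miR-148a-3p, mmu-miR-148b-3p and mmu-miR-152-3p, written below without the species prefix. They were chosen by name as 3 of the 932 rows of a small RNA table, and all 3 were listed. The libraries were made from mitochondria isolated from hearts of 6 wild-type (WT) and 6 db/db samples. db/db mice carry a leptin receptor that does not work and become obese and diabetic. The labels give no strain, age or treatment for either group, and they do not say that each numbered sample came from a separate animal, so a p-value here reflects variation among samples that may be only technical. No other fraction of the heart was among the libraries.

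miRNAs guide Argonaute proteins to messenger RNAs, mainly through pairing of the seed, bases 2 to 8 counted from the 5′ end, and thereby lower the output of the paired messages. The family is known from liver and adipose tissue, where miR-148a represses the LDL receptor and the cholesterol exporter ABCA1. miR-148a and miR-152 are also known to repress the DNA methyltransferase DNMT1, and the family acts in immune cells as well.

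The mature sequences, taken from RefSeq (GRCm38.p6), are shown because they make these miRNAs a family. Capitals mark the seed, which is the same in each.

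miR-148a-3p: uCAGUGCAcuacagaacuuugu
miR-148b-3p: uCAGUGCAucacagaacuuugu
miR-152-3p: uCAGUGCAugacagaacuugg

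With positions counted from 1 at the 5′ end, miR-148a-3p differs from miR-148b-3p by C9U and U10C, and their other 20 bases are identical. It differs from miR-152-3p by C9U, U10G and U20G, and miR-152-3p is 1 base shorter. All differences thus lie outside the seed. Among 1679 mature mouse miRNAs in the RefSeq table, these 3 alone hold the letters CAGUGCA at bases 2 to 8. With so few differences a read with sequencing errors could be assigned to the wrong member. How reads were assigned is not given in the sources used here, and no member's row was identical to another row.

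The members come from separate places in the genome, given here in GRCm38.p6 because the deposited table names miRNAs without positions. Mir148a lies at chr6:51269812-51269910 on the minus strand and overlaps no annotated gene other than its own in GENCODE M21. Its nearest protein-coding neighbours are Nfe2l3, at 162.8 kb, and Npvf, at 615.4 kb. Mir148b lies at chr15:103285125-103285221 on the plus strand, in an intron of Copz1, and Mir152 at chr11:96850393-96850465 on the plus strand, in an intron of Copz2. Copz1 and Copz2 are paralogues that encode the zeta subunits of the coatomer coat of Golgi vesicles, and both are transcribed from the same strand as the miRNA within them. The hairpins are shown with the 3p arm in capitals, since that arm is the subject here and the 5p arm is described further on.

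Mir148a: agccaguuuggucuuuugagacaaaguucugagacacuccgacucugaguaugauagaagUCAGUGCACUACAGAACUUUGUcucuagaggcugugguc
Mir148b: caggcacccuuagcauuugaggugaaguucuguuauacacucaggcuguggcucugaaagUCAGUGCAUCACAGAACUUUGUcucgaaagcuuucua
Mir152: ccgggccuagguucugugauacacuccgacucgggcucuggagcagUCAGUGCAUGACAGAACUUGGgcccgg

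Values are in RPM, reads scaled to 1000000 per library. Library depth, summed over every row of the table, ran from 412749 reads (db/db library 6) to 1382046 (db/db library 5), and it did not differ between genotypes beyond the spread (two-sided exact permutation p = 0.777). A single read therefore stood for 0.724 to 2.42 RPM. The heart muscle markers miR-1a-3p, miR-133a-3p, miR-208a-3p and miR-499-5p were above 0 in all libraries. Together they held 366749 to 420533 RPM in WT and 337987 to 439537 RPM in db/db libraries, most of it miR-133a-3p. Its mean was 323867 RPM in WT against 341153 RPM in db/db. The other means were lower in db/db, at 62696 ± 11812 against 53914 ± 16810 RPM for miR-1a-3p. They were 1573 ± 162 against 1341 ± 366 RPM for miR-499-5p and 68.6 ± 42.4 against 29.6 ± 17.1 RPM for miR-208a-3p (SD, n = 6 per genotype). Of the liver markers, the hepatocyte miRNA miR-122-5p was at 0 in some libraries and at most 27.5 RPM. The other liver markers, miR-192-5p and miR-194-5p, averaged 312 and 250 RPM over all libraries. The summed liver list ran from 474 to 787 RPM in WT and from 347 to 640 RPM in db/db libraries. The endothelial list ran from 18852 to 29569 RPM in WT and from 15588 to 25095 RPM in db/db libraries, the fibroblast and smooth muscle list from 33897 to 47321 and from 24559 to 39198 RPM, the leukocyte list from 3308 to 5171 and from 2981 to 6769 RPM, and the red blood cell list from 18648 to 41659 and from 35661 to 58147 RPM. The part of these cell types in the family's levels was not tested. In mitochondria isolated from hearts, fewer cells of a type and less RNA per cell cannot be told apart. Without another fraction, a level here does not show that a miRNA lay inside mitochondria. WT library 4 and db/db library 6 had the fewest reads and stood apart in an earlier analysis of these data, so values without them are given below.

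The family was of middling abundance in both genotypes, and no member differed between db/db and WT beyond the spread between libraries. miR-152-3p was the most abundant member in 9 of 12 libraries and miR-148a-3p in the other 3 (WT library 4 and db/db libraries 4 and 5). miR-148b-3p was the lowest in all 12. The sum of the 3 had a WT mean of 970 ± 196 RPM and a db/db mean of 874 ± 199 RPM (SD, n = 6 per genotype), with ranges of 668 to 1236 and 662 to 1238 RPM. These ranges nearly coincide. By rank among all listed rows, miR-152-3p stood between places 77 and 100, miR-148a-3p between 80 and 118 and miR-148b-3p between 127 and 210.

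miR-148a-3p, the member best known in cholesterol metabolism, varied widely within each genotype. In WT libraries it had a lowest value of 209 RPM, a median of 401 and a highest of 513, a 2.46-fold range. In db/db libraries the lowest was 225 RPM, the median 253 and the highest 604, a 2.68-fold range. The 2 genotypes overlapped over most of their range. In db/db the libraries fell into separate levels: libraries 1, 2, 3 and 6 stood at 234, 250, 256 and 225 RPM, while libraries 4 and 5 stood at 446 and 604 RPM. The exact 95% counting intervals of the former, at most 295 RPM, did not reach those of the latter, at least 400.1 RPM. WT library 1 was likewise low, at 209 RPM (interval 175 to 247), against 339 to 513 RPM in the other WT libraries. The spread among libraries of 1 genotype was thus larger than counting error, although PCR copies are not independent and the intervals cover counting error only. The WT mean was 391 ± 110 RPM and the db/db mean 336 ± 155 RPM (SD, n = 6 per genotype), and the WT median exceeded 4 of the 6 db/db values. The log2 fold change was -0.27 ± 0.24 (SE; limma adjusted p = 0.717), or 0.830-fold with a 95% interval of 0.599 to 1.15.

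miR-148b-3p, the Copz1 intron miRNA, was the least abundant and the least precisely measured member. In WT libraries it ran from 85.4 RPM over a median of 106 to 142 RPM, and in db/db libraries from 41.2 over 102 to 166 RPM. The db/db range enclosed the WT range on both sides. The lowest value came from db/db library 6, where it rested on 17 reads (interval 24.0 to 65.9 RPM), and the highest from db/db library 5, with 229 reads (interval 145 to 189 RPM). The WT mean was 111 ± 25.0 RPM and the db/db mean 105 ± 47.2 RPM (SD, n = 6 per genotype). The log2 fold change was -0.19 ± 0.31 (SE; limma adjusted p = 0.800), or 0.874-fold with a 95% interval of 0.565 to 1.35. Its sign was not stable: it was 0.04 when db/db library 6 was left out, 0.06 when WT library 4 was left out as well, and 0.01 by both edgeR and DESeq2 on recovered reads.

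miR-152-3p, the Copz2 intron miRNA, had the narrowest spread of the 3. In WT libraries it ran from 363 RPM over a median of 480 to 581 RPM, and in db/db libraries from 307 over 445 to 615 RPM. The genotypes overlapped, with the WT median above 5 of the 6 db/db values and the remaining one, from library 6, above every WT value. The WT mean was 468 ± 92.7 RPM and the db/db mean 433 ± 113 RPM (SD, n = 6 per genotype). The log2 fold change was -0.13 ± 0.20 (SE; limma adjusted p = 0.791), or 0.914-fold with a 95% interval of 0.689 to 1.21. Leaving out db/db library 6 gave -0.24 (limma adjusted p = 0.717), and leaving out WT library 4 as well gave -0.31 (limma adjusted p = 0.669).

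**Figure D1:**
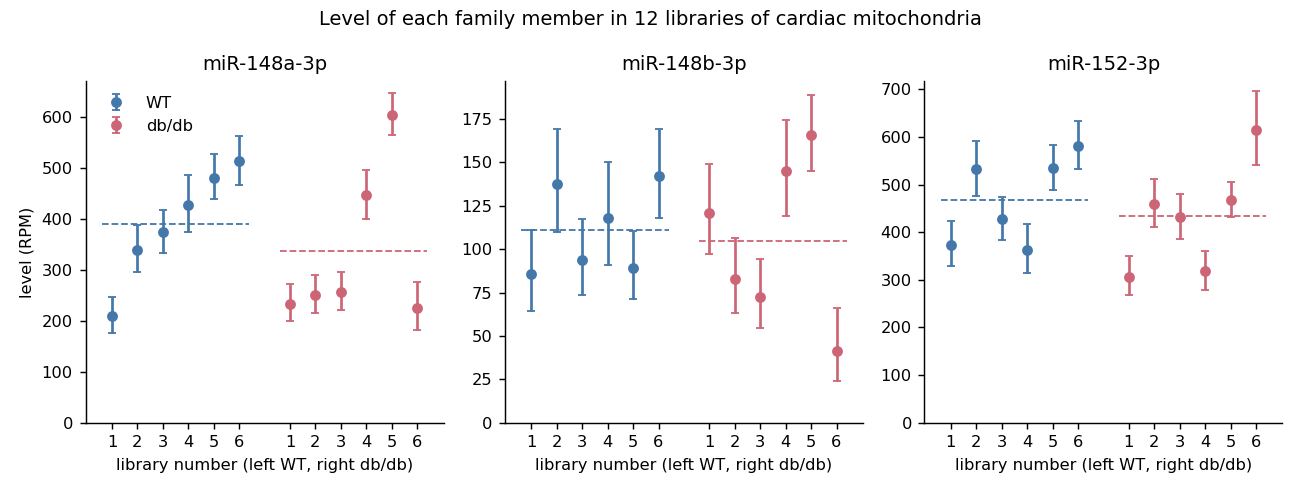
Level in RPM (vertical axis, from 0) of each member in the 6 WT (blue) and 6 db/db (red) libraries, by library number; bars are exact 95% counting intervals and dashed lines the group means. db/db libraries 4 and 5 sit at 446 and 604 RPM of miR-148a-3p above the other 4 db/db libraries, and db/db library 6 is the lowest for miR-148b-3p (41.2 RPM) and the highest for miR-152-3p (615 RPM).

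Of the 3 members 0 passed an adjusted p of 0.05 by limma, where 0.155% of the 646 rows tested were called (1 row, miR-22-3p, lower in db/db). At an unadjusted p under 0.05 by limma there were 0 of 3 members, against 8.98% of rows. edgeR called 0 of 3, and 0.464% of the 646 rows. DESeq2 gave an adjusted p to 145 rows, among them 2 members and not miR-148b-3p, and called 0 of these 2 and 8.97% of the 145. The members were also called 0 times of 3 by limma with the sample number as a replicate block, where 1.39% of rows were called, and with the grouping by number described further on, where 1.55% were. With 3 members, 0 called is near the background share at each of these thresholds. All 3 fitted differences were below 0 (median -0.19, against -0.04 over all rows tested), but that of miR-148b-3p turned positive under the settings named above. In the limma fit without block or grouping, the members' 95% intervals reached down to 0.565-fold and up to 1.35-fold, both for miR-148b-3p. These limits hold for that fit only, whose standard errors are considered below.

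The variability of the members themselves differed. The residual SD of log2 RPM within genotypes was 0.53 for miR-148a-3p and 0.57 for miR-148b-3p, against a median of 0.38 over the 83 rows with a mean of 100 to 1000 RPM. That placed them above 86.7% and 92.8% of these rows. miR-152-3p, at 0.34, stood above 41.0% of them. limma draws the variance of each miRNA towards that of rows of like abundance, so the standard errors of the first 2 given above are smaller than their own spread alone would give. Without the abundance trend the standard error of miR-148a-3p was 0.33 in place of 0.24 (limma adjusted p = 0.746).

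The make-up of the family varied from library to library, and the genotype means lay close together. RPM has no length term, and the members are 21 or 22 bases long, so that levels per length keep nearly the same proportions. miR-152-3p held 48.6% ± 5.47 of the family's RPM in WT against 50.6% ± 13.3 in db/db (SD, n = 6 per genotype). miR-148a-3p held 39.8% ± 6.08 and 37.3% ± 9.57, and miR-148b-3p 11.6% ± 2.05 and 12.0% ± 4.88. For each member the difference between the means was smaller than either SD, and the db/db libraries spread further than the WT libraries. In db/db library 6 miR-152-3p held 69.8% and miR-148b-3p 4.67%, and in db/db library 4 they held 35.0% and 15.9%.

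**Figure D2:**
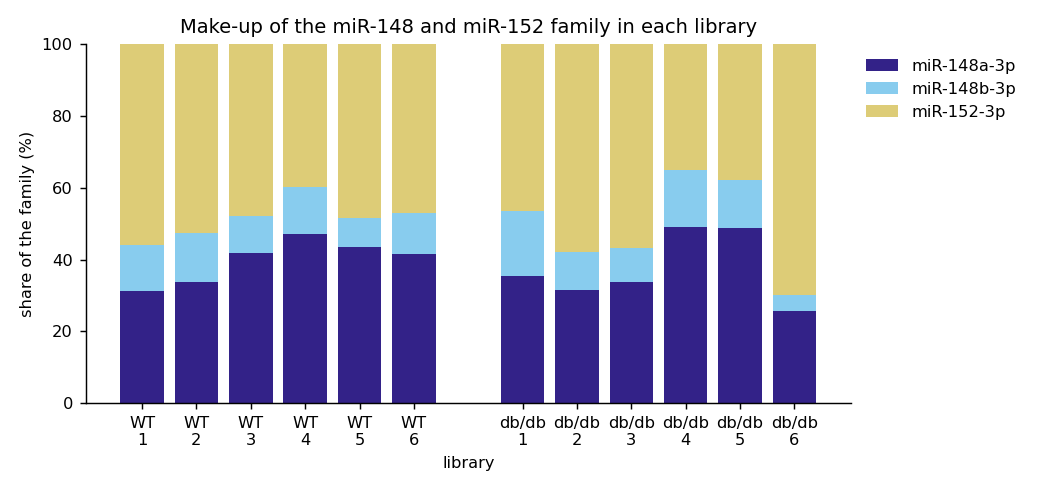
Share of the summed RPM of the family (vertical axis, 0 to 100%) held by miR-148a-3p, miR-148b-3p and miR-152-3p in each of the 12 libraries. The share of miR-152-3p runs from 39.9 to 55.9% in WT and from 35.0 to 69.8% in db/db libraries.

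In the order of levels miR-148b-3p was separated from both others, while miR-148a-3p and miR-152-3p were not separated consistently. miR-148a-3p exceeded miR-148b-3p in all 12 libraries, by 1.93-fold to 5.47-fold, with counting intervals apart in each. miR-152-3p exceeded miR-148b-3p with intervals apart in all 12 as well. miR-152-3p exceeded miR-148a-3p with intervals apart in 2 of 6 WT and 3 of 6 db/db libraries, and the reverse held in 0 of 6 WT and 2 of 6 db/db libraries. The ratio of miR-148a-3p to miR-152-3p had a mean of 0.839 ± 0.220 in WT against 0.827 ± 0.423 in db/db (SD, n = 6 per genotype). It ran from 0.559 to 1.18 in WT and from 0.366 in library 6 to 1.40 in library 4 of db/db.

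Over the 12 libraries together the members did not vary as 1 group, although within WT each pair had a positive r. As a description over the 12 libraries, which share depth and scaling, log2(RPM + 1) of miR-148a-3p and miR-148b-3p had a Pearson r of 0.67 (Spearman rho 0.70). The r was 0.45 within WT and 0.76 within db/db, and 0.61 after leaving out the libraries (WT 1, db/db 5) farthest from the median of miR-148a-3p. For miR-148a-3p and miR-152-3p r was 0.16 (rho 0.21), with 0.57 within WT and -0.16 within db/db. For miR-148b-3p and miR-152-3p it was -0.33 (rho -0.20), with 0.48 within WT and -0.70 within db/db. In db/db the 2 Copz intron miRNAs lay at opposite ends in library 6, with miR-148b-3p at 41.2 and miR-152-3p at 615 RPM. The r of this pair over all 12 libraries, -0.33, became -0.07 without the libraries farthest from the median of miR-148b-3p (db/db 5 and 6), so the pooled value rests on them.

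**Figure D3:**
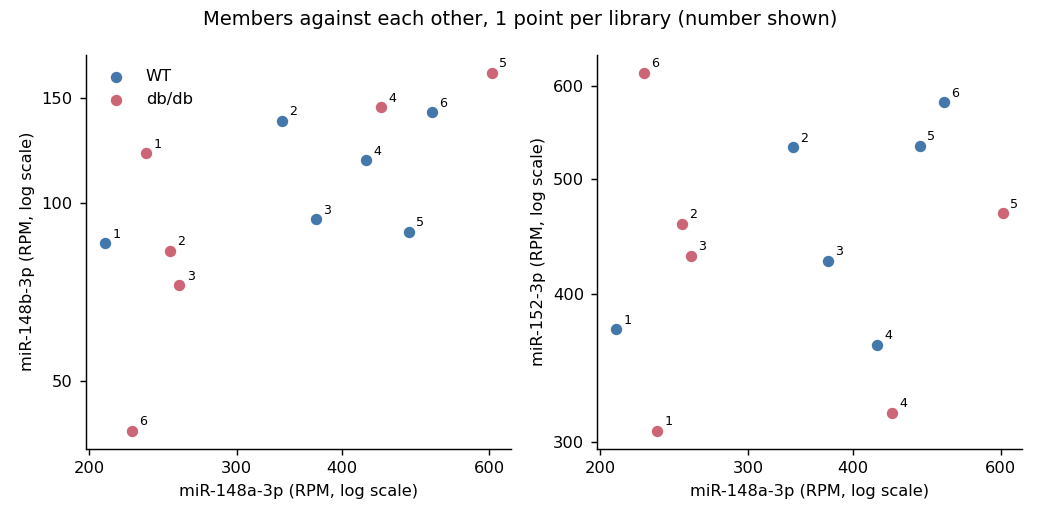
miR-148b-3p (left, vertical axis) and miR-152-3p (right, vertical axis) against miR-148a-3p (horizontal axes), all in RPM on log scales, 1 point per library with its number, WT in blue and db/db in red. The left panel slopes upward (r = 0.67 on log2(RPM + 1)), while the points of the right panel are scattered (r = 0.16).

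Among the 145 other named miRNAs with a mean of at least 100 RPM, those most like each member over the 12 libraries were different for each. For miR-148a-3p they were miR-499-5p (Pearson r 0.88, rho 0.80), which is encoded in an intron of the myosin gene Myh7b, miR-30a-5p (r 0.86, rho 0.92) and miR-21a-5p, a stress-responsive miRNA (r 0.85, rho 0.84). These remained at 0.89, 0.90 and 0.90 when WT 1 and db/db 5 were left out. For miR-152-3p they were miR-27a-3p (r 0.83, rho 0.83), the endothelial miR-126a-3p (r 0.79, rho 0.82) and miR-16-5p (r 0.74, rho 0.71), which stood at 0.76, 0.67 and 0.62 without db/db libraries 1 and 4. For miR-148b-3p the highest were miR-192-5p (r 0.70, rho 0.64), miR-101a-3p (r 0.69, rho 0.71) and miR-148a-3p, and the first 2 dropped to 0.43 and 0.45 without db/db libraries 5 and 6. Within WT they stood at 0.15 and -0.26, and within db/db at 0.86 and 0.88, so these likenesses were not seen within WT. For the 3 miRNAs most like miR-148a-3p r was 0.83 to 0.94 within WT and 0.86 to 0.95 within db/db, and for those most like miR-152-3p it was 0.73 to 0.90 and 0.74 to 0.83. Among the same 145, miR-148b-3p ranked at place 17 in likeness to miR-148a-3p and miR-152-3p at place 57. These values describe likeness in level only, and they were the highest picked from many.

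An earlier analysis of these data noticed that libraries numbered 4 to 6 differed from those numbered 1 to 3 in several miRNAs; the labels name no batch. miR-148a-3p ran from 209 to 373 RPM in WT libraries 1 to 3 and from 428 to 513 RPM in WT libraries 4 to 6, without overlap. In db/db it ran from 234 to 256 RPM in 1 to 3, and in 4 to 6 it was 446, 604 and 225 RPM, so library 6 fell outside that pattern. The share of all rows that separated by number in WT was not counted, so the split of miR-148a-3p is a description only. miR-148b-3p and miR-152-3p overlapped between the numbers in both genotypes. With this grouping as a factor the adjusted p of db/db against WT by limma was 0.697 for miR-148a-3p, 0.788 for miR-148b-3p and 0.777 for miR-152-3p.

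The 5p arms of the hairpins, the strands that are mostly discarded when Argonaute is loaded, were near the floor. Their sequences are shown with bases 2 to 8 in capitals, since they share no seed with the 3p arms.

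miR-148a-5p: aAAGUUCUgagacacuccgacu
miR-148b-5p: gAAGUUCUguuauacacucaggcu
miR-152-5p: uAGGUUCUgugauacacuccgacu

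Over all libraries miR-148a-5p had 45 reads against 3624 of its 3p arm, or 1.23% of the hairpin's reads (exact 95% interval 0.896 to 1.64%). miR-152-5p had 61 reads against 4185, or 1.44% (1.10 to 1.84%), and miR-148b-5p 18 against 1056, or 1.68% (0.996 to 2.64%). The 3p arm was thus the dominant strand of each hairpin. By genotype, the 5p share of miR-148a was 0.497% (0.227 to 0.941%) in the pooled WT reads and 1.94% (1.36 to 2.67%) in those of db/db. That of miR-152 was 0.739% (0.423 to 1.20%) and 2.16% (1.58 to 2.88%). These counting intervals lie apart but leave out the spread between libraries, and without db/db library 5 the db/db shares were 1.40% (0.767 to 2.34%) for miR-148a and 1.42% (0.870 to 2.19%) for miR-152, with intervals that overlap those of WT. For miR-148b the shares were 1.79% in WT and 1.58% in db/db. The setting without db/db library 5 was chosen after seeing the data. Reads of miR-148a-5p occurred in 6 of 12 libraries, of miR-152-5p in 8 and of miR-148b-5p in 2, WT library 5 and db/db library 5 with 9 reads each. Where such an arm had no read, up to 3 reads are still allowed, which is 3.12 to 7.27 RPM depending on the depth of these libraries. The most reads of miR-148a-5p (22) and miR-152-5p (25) came from db/db library 5, the deepest. The mean of miR-148a-5p was 2.51 ± 3.70 RPM for WT against 5.83 ± 7.68 RPM for db/db (SD, n = 6 per genotype; limma adjusted p = 0.831), and that of miR-152-5p 3.56 ± 3.40 against 7.37 ± 7.23 RPM (SD, n = 6 per genotype; limma adjusted p = 0.823). Neither difference went beyond the spread between libraries. That spread was wide between libraries of like depth as well. miR-148a-5p had 11 reads in db/db library 2 (depth 723777 reads) and 0 in db/db library 1 (depth 726885 reads).

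The family's seed letters also occur, shifted, in other miRNAs of the table. Within the 1679 RefSeq sequences 1.01% hold CAGUGCA on the mature strand at any position, and 6 listed rows besides the members do so. miR-130a-3p, miR-130b-3p and miR-301a-3p, of the miR-130 and miR-301 family, hold it at bases 1 to 7, so their own seed is offset by 1 base from that of miR-148a-3p. Their sequences are shown to make this offset visible, with the shared letters in capitals.

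miR-130a-3p: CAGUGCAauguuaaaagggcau
miR-130b-3p: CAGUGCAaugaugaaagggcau
miR-301a-3p: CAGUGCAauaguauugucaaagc

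On average these relatives were lower than the members. miR-130a-3p, with a mean of 51.8 RPM over all libraries against 108 RPM for miR-148b-3p, overlapped with that member and exceeded it in db/db library 6 (22 against 17 reads). It ran from 32.0 over a median of 55.1 to 101 RPM in WT and from 25.9 over 45.9 to 63.6 RPM in db/db libraries, overlapping ranges (log2 fold change -0.31 ± 0.39, SE; adjusted p = 0.733 by limma). miR-130b-3p averaged 2.51 RPM and miR-301a-3p 3.31 RPM over all libraries, near the worth of a few reads. miR-139-5p holds the letters at bases 5 to 11, and miR-17-5p and miR-106b-5p hold them at bases 12 to 18, outside their seeds. They averaged 1196, 110 and 234 RPM, with log2 fold changes of 0.08 ± 0.16, 0.27 ± 0.29 and -0.28 ± 0.25 (SE; limma adjusted p = 0.851, 0.717 and 0.717). None of the 6 passed the test.

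Other miRNAs with published roles in cholesterol and fatty acid metabolism were compared as a list. Of 31 such miRNAs 28 were listed in the table and 26 entered the fit. miR-33-5p, encoded in an intron of Srebf2 and the best-known miRNA of cholesterol export, was left out by the filter at a mean of 0.917 RPM, as was miR-96-5p. Of the 26, 0 were higher and 0 lower at an adjusted p of 0.05 by limma, against 0.155% of all rows. At an unadjusted p under 0.05 by limma there were 7 of 26, most of them lower in db/db. Over all rows there were 58 of 646 (8.98%), a smaller share. The list was drawn up with earlier results of these data known, so its count is a description. The median log2 fold change was -0.07, beside -0.04 over all rows tested, and 10 values were above and 16 below 0. The smallest p-values belonged to the smooth muscle miRNA miR-143-3p, to miR-223-3p of myeloid cells and to miR-24-3p, with log2 fold changes of -0.48 ± 0.13, -0.72 ± 0.22 and -0.36 ± 0.12 (SE; adjusted p = 0.0869, 0.109 and 0.198 by limma). The 3 most abundant of the list, miR-378a-3p, miR-143-3p and miR-24-3p, averaged 28215, 25457 and 23673 RPM, so that each exceeded the whole family many times over. Calls in this list depended on the fit. With the sample number as a replicate block or with the grouping by number, limma called 4 of the 26 lower and 0 higher. In both fits these were miR-24-3p, miR-143-3p, miR-21a-5p and miR-223-3p. Over all 646 rows 9 (1.39%) and 10 (1.55%) were called, a smaller share. DESeq2 called 2 lower (miR-223-3p and miR-24-3p) and 1 higher (miR-128-3p), where 13 of the 145 rows with an adjusted p were called (8.97%). How many of the list were among the 145 was not counted. The members of the miR-148 and miR-152 family were called under none of these fits.

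**Figure D4:**
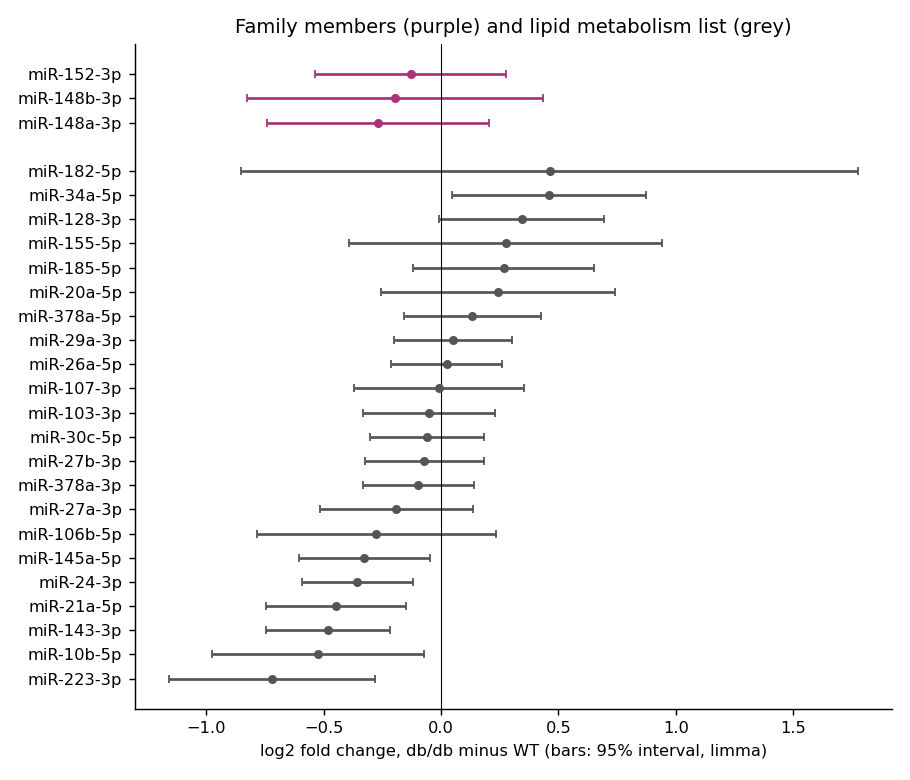
Log2 fold change of db/db minus WT (horizontal axis) with 95% intervals from limma, for the 3 members (purple) and the 22 miRNAs of the lipid metabolism list with a mean of at least 10 RPM (grey). The intervals of all 3 members span 0, from -0.74 to 0.20 for miR-148a-3p, from -0.82 to 0.43 for miR-148b-3p and from -0.54 to 0.28 for miR-152-3p.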

How the data were processed

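The authors deposited 1 table, named TPM, with a column per sample. Every column sums to 1000000, and dividing by 1 step per column turned 100% of values into whole reads (within 0.01 of a read). The deposited values were therefore treated as RPM with no term for length. GRCm39 is the genome build per the submitters' processing notes; the sources used here name neither aligner nor annotation. All 66 pairs of libraries differed by more than sampling noise (chi-square at least 18.6 per degree of freedom).

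Members, lists and named miRNAs were chosen with earlier results of these data known. By rule the named miRNAs were the members, their 5p arms, rows with the seed letters, the 3 most like each member, and in the lipid list those called, the 3 smallest p and the 3 most abundant; miRNAs called under other settings were named after their values were seen. The test was limma 3.58.1 (R 4.3.3), two-sided, on log2(RPM + 1) with variances trended on abundance. It covered the 646 rows averaging 1 RPM or more, with Benjamini-Hochberg adjustment over all of them. The design assumed normalized values. Recovered reads were tested with edgeR 4.0.16 and DESeq2 1.42.0. Intervals of RPM are Clopper-Pearson at 95%. The limma step was tested on simulated data. Other alternatives were pseudocount, filter, scaling, trend, library weights, replicate block and libraries left out; the grouping by number was added after seeing the data. Sequences are RefSeq's, GRCm38.p6. Plots were made with matplotlib 3.10.9 in Python 3.11.15.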

Additional observations from a re-analysis of the deposited data

Results flagged for a closer look

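Each genotype's 6 values were examined for 1 library lying apart, in 34 such groups. Of these 5 were marked, where about 1 in 20, or 1.7, would be by chance if values were normally distributed. Rows at 0 in most libraries are not, so the counts cannot be compared. None was a value of a member. miR-148b-5p was 9.35 RPM in WT library 5 and 6.51 RPM in db/db library 5 and 0 in the other libraries of each genotype. miR-130b-3p was above 0 in db/db library 2 alone among db/db libraries, at 2.76 RPM. miR-301a-3p was 13.5 RPM in WT library 5, while the next WT library had 1.58 RPM. The depth of db/db library 5 was 1382046 reads, and the next deepest of that genotype had 773784.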

How the results depend on the processing

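Over 16 other settings the log2 fold change of miR-148a-3p stayed between -0.28 and -0.14 and that of miR-152-3p between -0.31 and -0.04, and with 1 library left out between -0.46 and -0.18 and between -0.24 and -0.04. miR-148b-3p ran from -0.21 to 0.06 and, with 1 library left out, from -0.35 to 0.04. It was 0.0057 by edgeR, 0.014 by DESeq2, 0.065 without WT 4 and db/db 6 and 0.042 without db/db 6; the cause was not tested. No setting called a member. The lipid list had 0 calls, but 4 with the replicate block, 3 by DESeq2 and 4 with the factor for libraries 1 to 3 against 4 to 6, which was added after seeing the data. The labels do not say whether the sample numbers pair the libraries, and weak correlations cannot exclude it. Same-numbered WT and db/db libraries had correlations of -0.05 to 0.12. Of the WT libraries, WT 5 alone correlated best with its own number. The replicate block gave miR-148a-3p -0.27 (limma adjusted p = 0.696), with 9 calls over all rows against 1. Among near-floor miRNAs the sign of miR-148b-5p turned to 0.48 without WT 5 and 0.02 without db/db 1, 2, 3, 4 or 6 (range with 1 library left out -0.56 to 0.48), and that of miR-301a-3p to -0.14 without WT 4 and db/db 6. The value of miR-139-5p ran from -0.0058 (without WT 5) to 0.14 with 1 library left out. The scalings moved the median of all rows by less than 0.1. The 5p arms had at most 25 reads in a library, and their reads differed between libraries of like depth too.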
